A study of Mus musculus with 8 samples.

Results

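The small leucine-rich proteoglycans are a family of secreted proteins of the extracellular matrix, and 9 of their genes, *Fmod*, *Dcn*, *Lum*, *Bgn*, *Ogn*, *Prelp*, *Omd*, *Aspn* and *Podn*, were read from bulk RNA-seq of mouse visceral white adipose tissue (vWAT). The genes were chosen by name, through the Ensembl identifiers that the GRCm38 annotation pairs with these symbols, and all 9 of 9 were found among the 31053 genes of the count table. Of them, 8 were among the 11080 genes kept by a filter on low counts and tested, and *Omd*, with 1 to 8 counts per library, was not. The tissue came from 4 WT and 4 KIKO male mice of the C57BL/6 strain, aged 8 months, with 1 library per mouse, and the labels name no treatment. KIKO mice, a model of Friedreich's ataxia, carry a knock-in allele and a knock-out allele in every cell of the body, so that adipose tissue is not changed alone. The WT mice carry neither allele. The depot is called visceral by the tissue label and EWAT by the sample names.

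These proteins have a small core of leucine-rich repeats, and most carry sugar chains of chondroitin, dermatan or keratan sulfate. They bind the surface of collagen fibrils and set how thick and how closely packed the fibrils become, and several of them also hold growth factors of the TGF-beta family or bind receptors at the cell surface. In adipose tissue they are made mainly by fibroblasts and fibroblast-like progenitors of the stroma between the fat cells.

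Levels are given in CPM, which put the counts of each library on a common total scaled by TMM, and differences as log2 fold changes of KIKO against WT mice with their standard error (SE) from edgeR's quasi-likelihood test. An adjusted p is a Benjamini-Hochberg value over all 11080 genes tested, and a gene passed under 0.05. The libraries held 2602189 to 3478539 counts. On the first principal component WT mouse 3 (13.1) fell within the range of the KIKO mice (3.88 to 25.2) and apart from WT mice 1, 2 and 4 (-39.8 to -8.70), so the calls that change without it are given beside each result. Because it was picked for lying among the KIKO mice, leaving it out favours more calls, and passes without it are descriptions only. Over all genes, 285 passed as higher and 369 as lower without it, against 31 and 44 with all mice (edgeR). Adipocyte markers were abundant in every library, with a summed level of 22530 to 29875 CPM, and of 12 markers of epididymal epithelium 10 had no count in any library.

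Most of the 9 genes lie in clusters with other genes of the family. On chromosome 1 of GRCm38, *Prelp* (133910304 to 133921414, minus strand) follows *Optc* after 2304 bases, and *Fmod* (134037254 to 134048277, plus strand) starts 115839 bases beyond *Prelp*. On chromosome 10, *Dcn* (97479609 to 97518143) and *Lum* (97565128 to 97572703) stand 46984 bases apart on the plus strand and are followed by *Kera* and *Epyc*. On chromosome 13, *Aspn* (49544443 to 49567565), *Omd* (49582462 to 49592822) and *Ogn* (49608046 to 49624501) follow *Ecm2* on the plus strand, with gaps of 14896 and 15223 bases between these 3 genes. *Bgn* lies on chromosome X (73483602 to 73495933) and *Podn* on chromosome 4 (108014791 to 108096445, minus strand). The 3 genes of chromosome 13 lie within *Cenpp* on the opposite strand, which had 24 counts over the 8 libraries and shares 7 exonic bases with *Aspn* and none with the others, and *Prelp* shares 350 exonic bases with the antisense gene *Gm15851*, which had no count. *Podn* overlaps *Scp2* on the same strand, which had 3257 counts over the 8 libraries and shares 0 exonic bases with it. It also overlaps *Gm23354* and *Mir6397*, which share no exonic base with it and were not in the count table.

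Of the 8 tested genes, *Fmod* alone passed, on the higher side in KIKO mice, and the other 7 did not; over all genes tested, 0.280% were higher and 0.397% lower. The level was above every WT mouse in every KIKO mouse for 4 genes (*Fmod*, *Dcn*, *Lum* and *Ogn*), where this held for 3.89% of all genes tested, and for none was it below, against 4.56% of all genes. At an unadjusted p under 0.05, 5 of the 8 were on the higher side (the same 4 and *Bgn*), against 7.13% of all genes, and none was on the lower side, against 9.06% of all genes. The log2 fold change was above 0 for 7 of 8, against 49.0% of all genes, with a median of 0.38 against -0.01. The 9 genes were chosen with earlier results of these data known, so these counts describe the list and are no test of it. *Prelp*, *Aspn* and *Podn* had 95% intervals of the log2 fold change that included 0. The tissue was sequenced in bulk, so more cells of a type and more RNA per cell cannot be told apart for any of these genes.

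**Figure D1:**
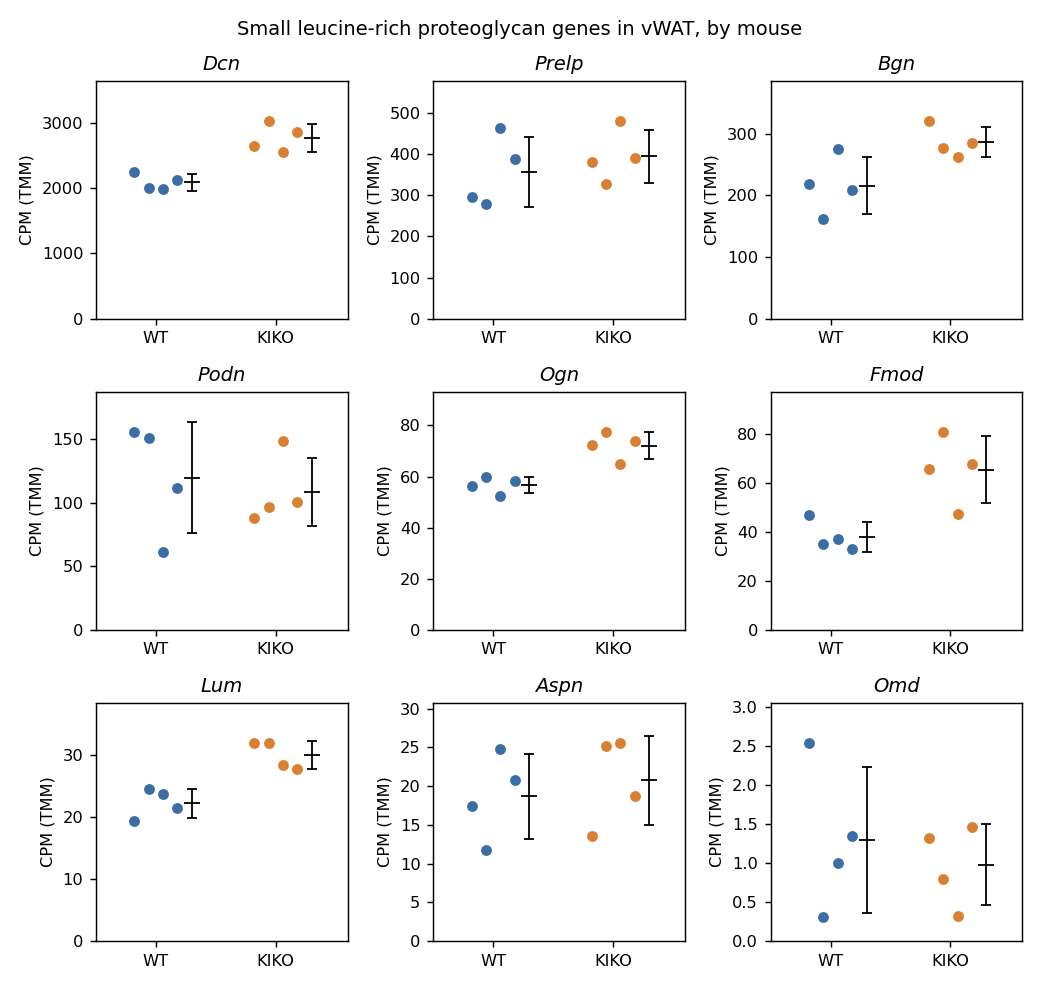
Level of each of the 9 genes in CPM (linear axis from 0, a scale of its own in each panel) in WT (blue) and KIKO (orange) mice, with 1 point per mouse in the order 1 to 4 and a black mean ± SD beside the points (n = 4). The groups are separate for *Dcn*, *Ogn*, *Fmod* and *Lum*, and overlap for the other 5.

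In the branch of the family that holds the keratan sulfate proteoglycans, *Fmod* (ENSMUSG00000041559) encodes fibromodulin, which binds collagen fibrils and brings the cross-linking enzyme lysyl oxidase to them. *Fmod* was read at 46.6, 34.8, 36.8 and 32.8 CPM in WT mice 1 to 4 and at 65.4, 80.7, 47.3 and 67.7 CPM in KIKO mice 1 to 4, from 98 to 231 counts per library. The lowest KIKO mouse, mouse 3, was only just above the highest WT mouse, mouse 1, while the other KIKO mice stood well clear. The mean rose from 37.8 ± 6.11 to 65.3 ± 13.8 CPM, a log2 fold change of 0.78 (SE 0.17, 95% interval 0.43 to 1.14, adjusted p = 0.0475 from edgeR). An exact permutation test of the mouse labels, 2-sided over 70 assignments, gave p = 0.0286, the smallest it can give. This p is not adjusted for the number of genes, and any gene whose groups do not overlap has it, so it restates the separation. The call is close to the threshold: *Fmod* held rank 68 by p among the 75 genes that passed. In edgeR the adjusted p was over the threshold when 1 WT mouse (number 2, 0.159, or 4, 0.157) or 1 KIKO mouse (number 1, 0.128, 2, 0.0906, or 4, 0.195) was left out, while the log2 fold change stayed between 0.67 and 0.92 whichever mouse was left out.

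Because *Fmod* was the gene that passed, and *Ogn* a separated gene of another cluster, the 250 bases before their annotated starts are shown, from RefSeq (GRCm38.p6), where 7 of the 9 genes had an entry. The plus strand is printed for both, with matches to the TATA motif TATAAA, to the AP-1 element TGANTCA and to the E-box CANNTG, searched on both strands, in capitals. The region of *Fmod* is chr1:134037004-134037253 and that of *Ogn* is chr13:49607765-49608014.
Fmod: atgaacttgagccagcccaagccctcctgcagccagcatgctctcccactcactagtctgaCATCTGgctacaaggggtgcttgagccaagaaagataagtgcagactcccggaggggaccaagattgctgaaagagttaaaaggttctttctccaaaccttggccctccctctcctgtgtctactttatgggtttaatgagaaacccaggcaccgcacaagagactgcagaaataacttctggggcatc
Ogn: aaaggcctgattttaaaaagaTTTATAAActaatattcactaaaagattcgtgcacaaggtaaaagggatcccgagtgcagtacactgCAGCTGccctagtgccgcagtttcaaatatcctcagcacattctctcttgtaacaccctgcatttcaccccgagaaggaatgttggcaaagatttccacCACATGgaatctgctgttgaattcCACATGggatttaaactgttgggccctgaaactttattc
The sequence of *Fmod* holds 1 E-box, 189 bases before the start, and no match to the other motifs. That of *Ogn* holds 3 E-boxes, 162, 63 and 39 bases before the start, and TATAAA read on both strands of 1 overlapping stretch, 229 and 227 bases before the start. Of 32851 promoters of the same length, 66.2% held an E-box, 12.4% TATAAA and 6.75% the AP-1 element, so the E-box was a common match, and a match is a description of the letters only.

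*Lum* encodes lumican, a relative of fibromodulin that competes with it for the same stretch of collagen. *Lum* was read at 19.3, 24.5, 23.8 and 21.4 CPM in WT mice and at 32.02, 31.97, 28.5 and 27.8 CPM in KIKO mice, from 61 to 97 counts per library. Every KIKO mouse was above every WT mouse (exact permutation p = 0.0286), and the log2 fold change was 0.43 (SE 0.15, 95% interval 0.12 to 0.74), which did not pass (adjusted p = 0.167 from edgeR). The ratio of *Fmod* to *Lum* counts ranged from 1.42 to 2.41 over the WT mice and from 1.66 to 2.53 over the KIKO mice, so the groups overlapped.

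*Prelp* encodes a relative with a positively charged end that binds heparin and heparan sulfate and so ties collagen to basement membranes. It ranged from 280 to 463 CPM in WT mice and from 327 to 481 CPM in KIKO mice, and the groups overlapped over most of their range (log2 fold change 0.15, SE 0.17, 95% interval -0.21 to 0.50, adjusted p = 0.705 from edgeR). *Prelp* and *Fmod* are neighbours on chromosome 1, and whether their log2 fold changes differed was not tested. *Omd*, which encodes the bone-enriched osteomodulin, had 28 counts in all, with 0.303 to 2.54 CPM in WT mice and 0.324 to 1.46 CPM in KIKO mice, so a difference was not detectable at this depth.

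In the branch of the family that holds the chondroitin and dermatan sulfate proteoglycans, *Dcn* (ENSMUSG00000019929) encodes decorin, which coats collagen fibrils, keeps them thin and binds TGF-beta. *Dcn* was read at 2255, 1999, 1986 and 2122 CPM in WT mice and at 2646, 3037, 2557 and 2863 CPM in KIKO mice. The groups did not overlap (exact permutation p = 0.0286), and the coefficient of variation in WT mice was 6.00%, the second smallest of the 9 genes after *Ogn*. The log2 fold change was 0.41 (SE 0.13, 95% interval 0.14 to 0.68), a fold of 1.33, which did not pass in edgeR (adjusted p = 0.135) and passed in DESeq2 with 0.42 (adjusted p = 0.00268).

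*Bgn* encodes biglycan, the closest relative of decorin, which also binds Toll-like receptors as a danger signal. *Bgn* was read at 218, 162, 275 and 209 CPM in WT mice and at 321, 277, 263 and 285 CPM in KIKO mice. WT mouse 3 alone lay within the range of the KIKO mice, and the log2 fold change of 0.41 (SE 0.15, 95% interval 0.09 to 0.72) did not pass (adjusted p = 0.188 from edgeR, exact permutation p = 0.0571). Without WT mouse 3 it was 0.55 and passed (adjusted p = 0.0277 from edgeR). The ratio of *Dcn* to *Bgn* counts was 10.02 ± 2.12 in WT and 9.74 ± 1.13 in KIKO mice.

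*Aspn* encodes asporin, which lacks the usual sugar chain sites, has a stretch of aspartates and binds TGF-beta. It ranged from 11.8 to 24.8 CPM in WT mice and from 13.5 to 25.6 CPM in KIKO mice, with overlapping groups (log2 fold change 0.15, SE 0.24, 95% interval -0.36 to 0.66, adjusted p = 0.803 from edgeR), and the log2 fold change was -0.02 without WT mouse 2.

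*Ogn* encodes osteoglycin, also called mimecan, of a branch of the family with fewer repeats. *Ogn* was read at 56.1, 60.0, 52.5 and 58.3 CPM in WT mice and at 72.3, 77.5, 64.8 and 73.8 CPM in KIKO mice. The groups did not overlap (exact permutation p = 0.0286), and WT mice varied by 5.64% (coefficient of variation). The log2 fold change was 0.34 (SE 0.12, 95% interval 0.09 to 0.60) and did not pass (adjusted p = 0.170 from edgeR). On chromosome 13, *Ogn* was thus separated between the groups where *Aspn* was not.

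*Podn* encodes podocan, a more distant member that binds collagen. *Podn* was read at 156, 151, 60.9 and 111 CPM in WT mice and at 87.8, 96.7, 148 and 101 CPM in KIKO mice. It was the most variable of the 8 tested genes in WT mice, with a coefficient of variation of 36.7%, and WT mouse 3 was the lowest of all mice. The log2 fold change was -0.14 (SE 0.24, 95% interval -0.65 to 0.36, adjusted p = 0.810 from edgeR), and it was -0.36 without WT mouse 3 and 0.01 without WT mouse 1, neither of which passed.

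**Figure D2:**
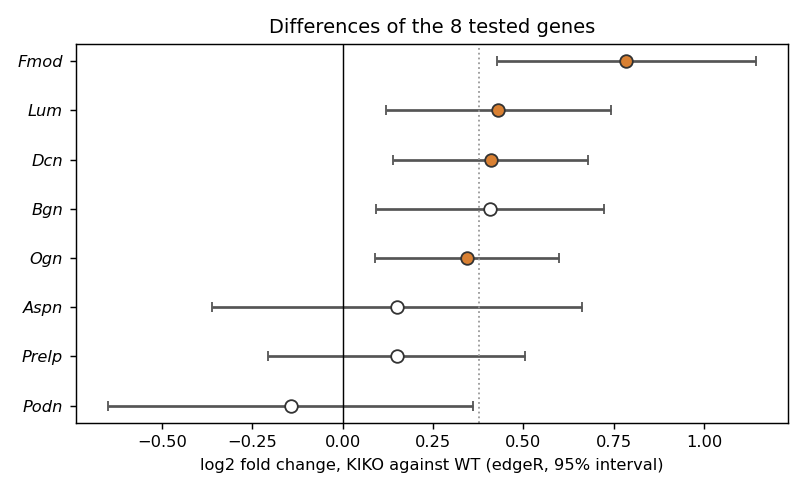
Log2 fold change of KIKO against WT mice for the 8 tested genes, with 95% intervals from edgeR (4 mice per group). Filled points mark genes with every KIKO mouse above every WT mouse, the solid line is 0 and the dotted line the median of the 8 (0.38); the intervals of *Aspn*, *Prelp* and *Podn* cross 0.

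The levels of the genes were compared with each other per kilobase of the principal transcript. In WT mice *Dcn* led with 1189 CPM per kb, followed by *Prelp* (98.5), *Bgn* (89.3), *Podn* (37.7), *Ogn* (22.1), *Fmod* (12.1), *Lum* (9.10), *Aspn* (8.03) and *Omd* (0.576). Neighbours in this order whose ranges overlapped were *Prelp* with *Bgn*, *Podn* with *Ogn*, and *Lum* with *Aspn*, whereas *Fmod* (10.5 to 14.9 CPM per kb) lay above *Lum* (7.90 to 10.02) in every WT mouse. In KIKO mice the mean of *Bgn* (118) stood above that of *Prelp* (109), with ranges that overlapped, whereas in CPM without the division by length *Prelp* (395) stood above *Bgn* (287). *Fmod* stood at 20.9 and *Lum* at 12.3 CPM per kb. The scale assumes reads spread over the transcript. The sources used here differ on the library kit, and if reads came from transcript ends only, levels per kb could not be compared between genes.

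*Dcn* made up most of the RNA of the family. Its share of the summed level of the 9 genes was 71.6% ± 2.62 in WT and 73.9% ± 2.58 in KIKO mice, and that of *Fmod* was 1.29% ± 0.171 and 1.73% ± 0.307. The summed level was 2723 to 3066 CPM in WT mice and 3616 to 3954 CPM in KIKO mice, with no overlap, and it follows *Dcn* in the main. The ratio of *Dcn* to *Col1a1* counts, a pair chosen after the values were seen, ranged from 10.4 to 15.5 over the WT mice and from 16.3 to 17.0 over the KIKO mice. It was higher in every KIKO mouse than in any WT mouse, a description with no test.

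The genes of the family did not all follow 1 pattern across the 8 mice. The root mean square difference between centred log2 CPM profiles was smallest between *Dcn* and *Ogn* (0.0818), and *Ogn* ranked 4 among all tested genes by its likeness to *Dcn*, after *Aldh7a1* (0.0729), *Iah1* (0.0737) and *Canx* (0.0756). *Lum* was nearest to *Ogn* (0.131), *Bgn* to *Dcn* (0.225), *Prelp* to *Bgn* (0.256), *Aspn* to *Prelp* (0.303) and *Podn* to *Ogn* (0.482). *Fmod* was nearest to *Dcn* among the family (0.252), but *Dcn* ranked only 52 among all tested genes by this likeness, which was led by *Gfpt2* (0.145), *Serping1* (0.156) and *Praf2* (0.160). These are descriptions over 8 libraries that share the difference between the groups.

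Of 9 other genes of the family, only *Ecm2*, whose protein has the same repeats and which begins the cluster on chromosome 13, was abundant enough for a test. It was 40.3 ± 4.53 CPM in WT mice and 43.8 ± 7.04 CPM in KIKO mice (log2 fold change 0.12, SE 0.15, adjusted p = 0.726 from edgeR). *Kera* and *Chad*, known from cornea and cartilage, had no count in any library, and *Epyc*, *Optc*, *Chadl*, *Nyx*, *Tsku* and *Podnl1* had 4 to 74 counts in all. Among these, *Podnl1*, the nearest relative of *Podn*, was 2.34 to 2.54 CPM in WT mice and 2.97 to 4.40 CPM in KIKO mice, from 7 to 12 counts per library, and was not tested.

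The sugar chains are built by transferases and sulfotransferases that use activated sugars and sulfate carried into the Golgi. Of 28 tested genes of this list, none passed, 11 had a log2 fold change above 0 and 17 below, with a median of -0.12, and at an unadjusted p under 0.05 none was on the higher side and 1 on the lower. That gene was *Slc35b2*, the Golgi transporter of the sulfate donor, whose mean was 56.4 CPM in WT mice and 32.6 CPM in KIKO mice, with every KIKO mouse below every WT mouse (log2 fold change -0.79, SE 0.18, adjusted p = 0.0573 from edgeR). Its relative *Slc35b3* had -0.43 (adjusted p = 0.332 from edgeR).

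Of 13 tested genes of fibril and fibril-surface collagens, the binding partners of the family, none passed, 5 had a log2 fold change above 0 and 8 below, with a median of -0.04, and at an unadjusted p under 0.05 none was on the higher side and 1 on the lower. The smallest p values were those of *Col5a3*, a minor fibril collagen chain (log2 fold change -0.51, adjusted p = 0.289 from edgeR), and of *Col6a5*, a chain of beaded filaments (0.31, adjusted p = 0.426 from edgeR). Of 20 tested genes of enzymes and helpers that modify, trim or cross-link collagen, none passed, with 5 above 0 and 15 below and a median of -0.08, and at an unadjusted p under 0.05, 3 were on the higher side and 1 on the lower. *Pcolce* and *Pcolce2*, enhancers of the trimming of procollagen, stood at the higher end: *Pcolce* was 48.8 CPM in WT mice and 76.3 CPM in KIKO mice (log2 fold change 0.64, SE 0.14, adjusted p = 0.0593 from edgeR), and *Pcolce2* 73.2 and 105 CPM (0.53, SE 0.14, adjusted p = 0.0841). For both, every KIKO mouse was above every WT mouse.

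Growth factors of the TGF-beta family and parts of their signalling gave 19 tested genes, none of which passed, with 6 above 0 and 13 below and a median of -0.13; at an unadjusted p under 0.05, 2 were on the higher side and 3 on the lower. *Ltbp3*, which holds latent TGF-beta in the matrix, had every KIKO mouse below every WT mouse (log2 fold change -0.59, SE 0.14, adjusted p = 0.0698 from edgeR), as had the receptor *Tgfbr1* (-0.63, adjusted p = 0.221). Of 11 tested receptors and co-receptors, none passed, with a median of -0.10, and at an unadjusted p under 0.05, 1 was on the higher and 1 on the lower side; *Igf1r*, a receptor bound by decorin, had -0.39 (adjusted p = 0.234 from edgeR) and the hyaluronan receptor *Cd44* 0.39 (adjusted p = 0.256). Of 14 tested proteases that cleave these proteins, with their inhibitors, none passed, with a median of -0.05, and at an unadjusted p under 0.05, 3 were on the higher side and 2 on the lower. The inhibitor *Timp3* was 634 CPM in WT mice and 395 CPM in KIKO mice, lower in every KIKO mouse (log2 fold change -0.68, SE 0.16, adjusted p = 0.0642 from edgeR), and the gelatinase *Mmp2* was 20.3 and 32.4 CPM (0.68, SE 0.19, adjusted p = 0.100). Without WT mouse 3 these pathway lists together held 5 genes that passed as higher, *Pcolce*, *Pcolce2*, *Serpinh1*, *Mmp2* and *Htra1*, and 5 as lower, *Slc35b2*, *Ltbp3*, *Timp3*, *Ccn2* and *Plod2* (edgeR), of which *Serpinh1*, *Htra1*, *Ccn2* and *Plod2* are named after their values were seen. In DESeq2 with all mice, 4 passed as higher (*Pcolce*, *Pcolce2*, *Serpinh1* and the protease gene *Ctss*, named after its values were seen) and 3 as lower (*Slc35b2*, *Ltbp3* and *Timp3*). With no filter, 4 passed as higher and 3 as lower. None passed by limma-voom, by limma-trend, with the replicate block or with the length correction. With any mouse but WT mouse 3 left out, only *Pcolce* passed, without KIKO mouse 3 (adjusted p = 0.0431 from edgeR).

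**Figure D3:**
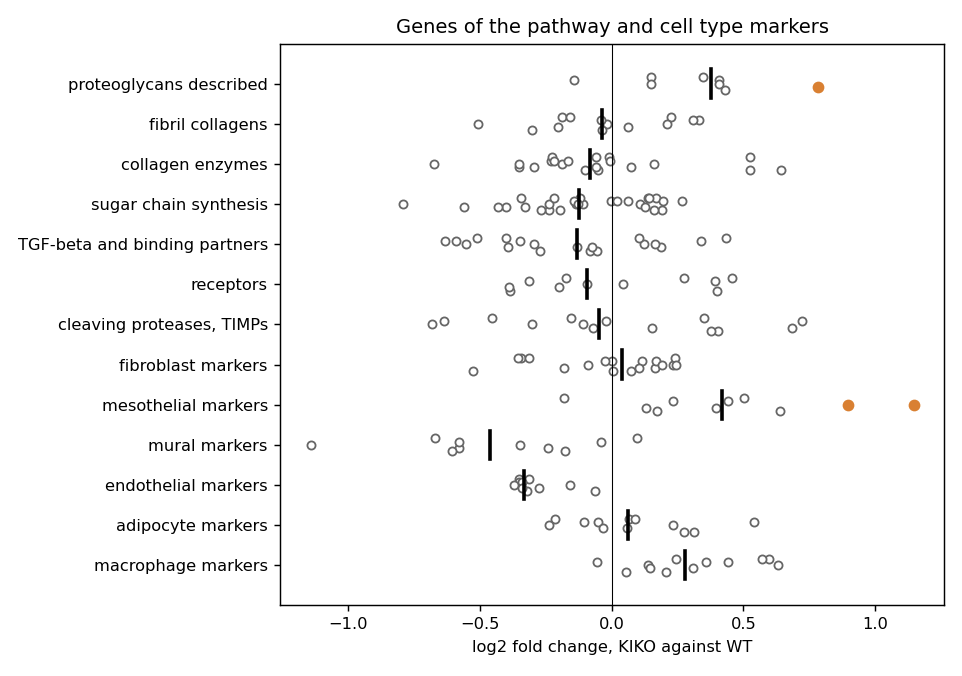
Log2 fold change of KIKO against WT mice for each tested gene (points) of the proteoglycans described, of 6 lists of their pathway and of 6 lists of cell type markers, with the median of each list as a black bar. Orange points passed at an adjusted p under 0.05 in edgeR: *Fmod*, *Krt19* and *Upk1b*.

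Markers of the cell types of the tissue were read beside the proteoglycans. Of 18 tested markers of fibroblasts and adipose progenitors, none passed (edgeR; at an unadjusted p under 0.05, none on the higher side and 1 on the lower), 10 had a log2 fold change above 0 and 8 below, with a median of 0.04, and their summed level was 5442 to 6353 CPM in WT mice and 5475 to 6626 CPM in KIKO mice. *Pi16*, a marker of progenitors, had -0.36 (adjusted p = 0.260 from edgeR) and the receptor gene *Pdgfrb* -0.53 (adjusted p = 0.315). Most of this sum was *Gsn* (gelsolin, 4190 and 4411 CPM in WT and KIKO mice), named after its values were seen, as most of the sum of the proteoglycans was *Dcn*. The part of fibroblast number in the levels of the proteoglycans was not tested.

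Of 10 tested markers of mesothelial cells, which cover the depot, 2 were higher in KIKO mice, the keratin gene *Krt19* (14.7 against 32.6 CPM, log2 fold change 1.15, SE 0.21, adjusted p = 0.0326 from edgeR) and the uroplakin gene *Upk1b* (11.6 against 21.6 CPM, 0.90, SE 0.17, adjusted p = 0.0355). Of the 10, 9 had a log2 fold change above 0, with a median of 0.42, and their summed level was 326 to 467 CPM in WT mice and 346 to 668 CPM in KIKO mice. At an unadjusted p under 0.05 (edgeR), 4 were on the higher side and none on the lower. KIKO mouse 3 had the lowest mesothelial sum and the lowest *Fmod*, *Dcn* and *Ogn* of the KIKO mice, and KIKO mouse 2 the highest of each. *Prelp* was the other way round, highest in KIKO mouse 3 (481 CPM) and lowest in KIKO mouse 2 (327 CPM). *Podn* (148 CPM) and *Aspn* (25.6 CPM) were also highest in KIKO mouse 3. *Bgn* was lowest in KIKO mouse 3 and *Lum* in KIKO mouse 4, and both were highest in KIKO mouse 1. The sums of the macrophage and lymphocyte markers had the same lowest and highest KIKO mouse as the mesothelial sum. For the endothelial markers the 2 mice were the other way round. The sums of the fibroblast and adipocyte markers were highest in KIKO mouse 3 (6626 and 29875 CPM) and lowest in KIKO mouse 1 (5475 and 25444 CPM). That of the mural markers was highest in KIKO mouse 1 (588 CPM) and lowest in KIKO mouse 2 (444 CPM). In edgeR without 1 mouse, *Krt19* passed without WT mouse 1 or 3 or KIKO mouse 3, and *Upk1b* only without WT mouse 3. In DESeq2 with all mice, *Krt19* passed (adjusted p = 0.000772), and *Upk1b* had no adjusted p there. *Lrrn4*, named after its values were seen, also passed in DESeq2 (0.65, adjusted p = 0.0338). The part of mesothelial RNA in the levels of the proteoglycans was not tested.

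Of 12 tested macrophage markers none passed (edgeR; at an unadjusted p under 0.05, 4 on the higher side and none on the lower), 11 had a log2 fold change above 0, with a median of 0.28, and their sum was 1596 to 1857 CPM in WT mice and 1741 to 2348 CPM in KIKO mice, with *Cd68* at 0.57 (adjusted p = 0.0836 from edgeR) and *Csf1r* at 0.36 (0.170). Without WT mouse 3, *Cd68* (0.63, adjusted p = 0.0270 from edgeR) and *Csf1r* (0.44, 0.0443) passed, and *Cd68* passed in DESeq2 with all mice (adjusted p = 0.0287). *Cd68* also passed with no filter (adjusted p = 0.0365 from edgeR). It did not pass with any other mouse left out (adjusted p 0.111 to 0.261 from edgeR) or by limma-voom (0.0891). After a correction for length *Cd68* was 0.43 (adjusted p = 0.174 from edgeR). *Csf1r* passed in no other setting. Of 10 mural cell markers none passed (edgeR; none on the higher and 5 on the lower side at an unadjusted p under 0.05), 9 had a log2 fold change below 0, with a median of -0.46, and the sum was 596 to 659 CPM in WT mice and 444 to 588 CPM in KIKO mice, with no overlap; *Myh11* had -0.58 (adjusted p = 0.0955 from edgeR) and *Cspg4* -0.58 (0.152). *Myh11* passed in DESeq2 (adjusted p = 0.0473), and *Abcc9*, a potassium channel subunit named after its values were seen, passed in edgeR without WT mouse 3 (-0.87, adjusted p = 0.0168). *Myh11* also passed without WT mouse 1 (adjusted p = 0.0433 from edgeR) and with no filter (0.0344). It did not pass by limma-voom (adjusted p = 0.111) or after a correction for length (-0.51, 0.172 from edgeR). All 10 endothelial markers, *Pecam1* and *Esam* among them, had a log2 fold change below 0, none passed (edgeR; 2 on the lower side at an unadjusted p under 0.05), and the sum was 785 to 1043 CPM in WT mice and 531 to 875 CPM in KIKO mice. Of 12 adipocyte markers none passed (edgeR; 1 on the higher side at an unadjusted p under 0.05), with a median of 0.06, *Adipoq* at 0.54 (adjusted p = 0.102) and *Pnpla2* at 0.27. *Adipoq* passed without WT mouse 3 (0.65, adjusted p = 0.0184 from edgeR) and in DESeq2 with all mice (0.55, adjusted p = 0.00379). It did not pass with any other mouse left out (adjusted p 0.129 to 0.293 from edgeR) or by limma-voom (0.0835). After a correction for length it was 0.41 (adjusted p = 0.207 from edgeR). Of 4 tested markers of T and B cells, *Cd2* among them, none passed at either threshold, and the sum was 24.4 to 35.2 CPM in WT mice and 19.8 to 54.0 CPM in KIKO mice. The part of these cell types in the levels of the proteoglycans was not tested.

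Transcript length moved with the groups as well. Spearman's rho across genes, between exonic length and the log2 level in 1 library less the mean over the 8, was 0.118 to 0.277 for WT mice 1, 2 and 4, -0.101 for WT mouse 3 and -0.230 to -0.109 for KIKO mice, and the log2 fold change of 11075 genes correlated with it at -0.312; genes are not independent replicates and no test was made. *Fmod*, with 3306 exonic bases, is shorter than the median tested gene (4631 bases, percentile 31.0). After a correction for length its log2 fold change was 0.73 and did not pass (adjusted p = 0.0788 from edgeR), while *Dcn* and *Bgn* stood at 0.44 each. Other members moved towards 0 under this correction, *Lum* to 0.34 (adjusted p = 0.295 from edgeR), *Ogn* to 0.26 (0.350), *Prelp* to 0.11 and *Aspn* to 0.06, and *Podn* stood at -0.17. The correction took all exonic bases of a gene, which for *Dcn* (5838) and *Bgn* (6099) are above the median of the tested genes. The principal transcripts of *Dcn* and *Bgn* have only 1758 and 2419 bases, and a correction by that length was not made. Under the correction by exonic length, genes of the other lists moved as well. *Upk1b* went to 0.79 and did not pass (adjusted p = 0.0620 from edgeR), while *Krt19* passed (1.04, 0.0433). *Igf1r* (-0.15) and *Ltbp3* (-0.48) moved towards 0, whereas *Slc35b2* (-0.86) and *Esam* (-0.40) moved away from 0. The list medians are given without this correction.

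Across 17 other settings, *Fmod* had a log2 fold change of 0.67 to 0.92 and passed in 7, DESeq2 among them (adjusted p = 0.00327), whereas *Dcn* (0.36 to 0.45) passed in DESeq2 only and *Bgn* (0.29 to 0.55) only without WT mouse 3. *Lum* (0.34 to 0.48) and *Ogn* (0.26 to 0.40) were above 0 in each of the 17 settings and passed in none.

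**Figure D4:**
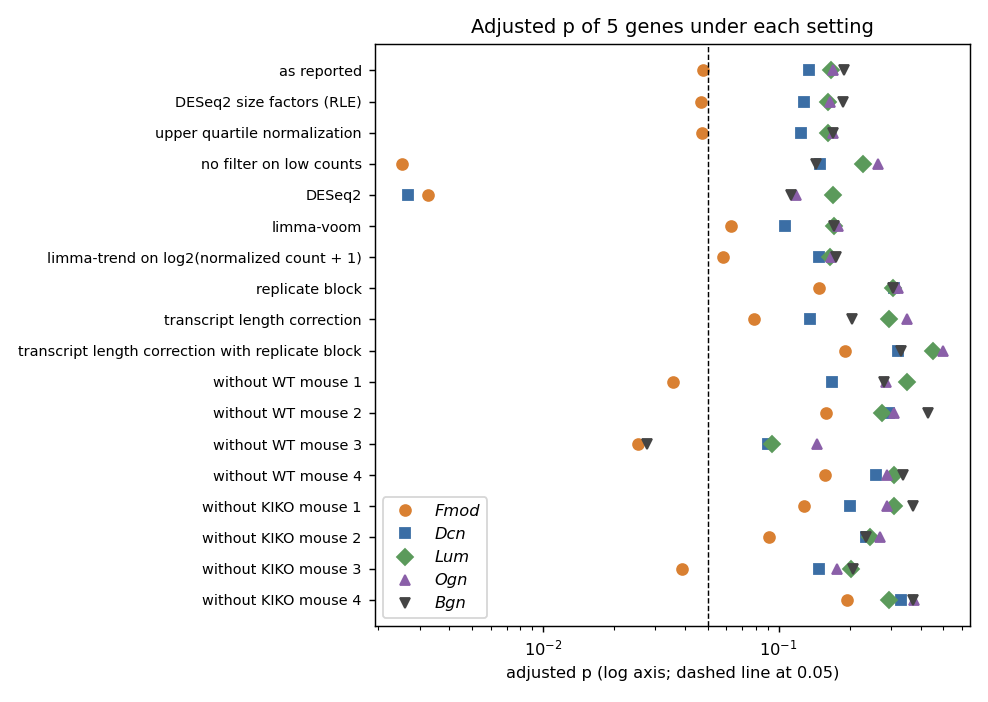
Adjusted p (log axis) of *Fmod*, *Dcn*, *Lum*, *Ogn* and *Bgn* as reported and under each of 17 other settings, with the threshold of 0.05 as a dashed line. *Fmod* lies left of the line as reported and in 7 other settings, *Dcn* in DESeq2 and *Bgn* without WT mouse 3, and *Lum* and *Ogn* in none.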

How the data were processed

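Bulk RNA-seq of vWAT of 4 WT and 4 KIKO mice (1 library per mouse, 2602189 to 3478539 counts) was read from 2 tables. The authors deposited raw counts per Ensembl gene, and a second table by the authors that holds log2 of the normalized count plus 1, used only as an alternative. Per the study's methods, Trimmomatic trimmed the reads, HISAT2 placed them on GRCm38, StringTie gave the counts and DESeq2 tested them; the submitters' processing notes name the same tools without StringTie. The methods name a stranded mRNA kit and a NextSeq, the labels a NovaSeq run of a digital mRNA-seq service, and the annotation release is not given in the sources used here. Whether counting used strand is not given either, so reads of a gene and an overlapping antisense gene cannot be told apart.

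Symbols, positions and lengths came from the GENCODE M21 annotation of GRCm38, which held 30934 of the 31053 identifiers; 12961 genes had no count. The fits were made with edgeR 4.0.16 in R 4.3.3 (TMM, filterByExpr by genotype, quasi-likelihood test with genotype only, Benjamini-Hochberg over 11080 genes, threshold 0.05; common biological coefficient of variation 0.160). SEs are implied by the test statistic. Single genes were also tested with a 2-sided exact permutation test on log2 CPM (prior count 1; 70 assignments). The p-values measure the spread between these mice.

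The members and lists were chosen with earlier results of these data known. The text names the 9 genes, the 2 genes with the smallest p of each list and the genes nearest to *Fmod* and *Dcn*; a name picked later is said to be so. The targeted gene is not reported here. Promoter sequences were RefSeq's. Alternatives were other normalizations, no filter, DESeq2 1.42.0, limma-voom and limma-trend (limma 3.58.1), the replicate number as a block, a length correction (a smooth trend per library, mgcv 1.9.3) and leaving out each mouse. No pair of libraries of a genotype was a duplicate.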

Additional observations from a re-analysis of the deposited data

Results flagged for a closer look

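Of 86 groups of 4 mice checked for a mouse far from the other 3 of its group, 4 stood out. The cut-off gives 1 in 20 by chance only for normally distributed values. These 4 came from counts near 0 and the groups share libraries, so the number cannot be compared with chance. All 4 are levels of scarce genes of the family, outside the 9 described, from at most 10 counts in a library. *Epyc* was 1.34 CPM in WT mouse 4 against 0.303 to 0.335 CPM in the other WT mice, and 2.40 CPM in KIKO mouse 2 against 0 in the others. *Nyx* was 0.324 CPM in KIKO mouse 3 and 0 in the other KIKO mice. *Tsku* was 4.00 CPM in KIKO mouse 2 against 1.62 to 1.98 CPM in the others.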

How the results depend on the processing

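No proteoglycan gene passed as lower in KIKO mice under any of 17 settings. The number higher (1 as reported) was 2 in DESeq2 (*Fmod* and *Dcn*) and 0 in limma-voom, limma-trend, the replicate block, the length correction and both together, and 0 to 2 with 1 mouse left out, 2 without WT mouse 3. With 31 genes higher and 44 lower as reported over all genes, the counts were 146 and 236 of 18092 with no filter, 134 and 126 of 6616 in DESeq2, 23 and 17 by limma-voom, 25 and 20 by limma-trend, 14 and 22 with the length correction, and 0 to 285 and 0 to 369 with 1 mouse left out; the counts of 0 were those of the fits that lacked WT mouse 2, WT mouse 4 or KIKO mouse 4 (1344, 1533 and 1328 genes at an unadjusted p under 0.05, edgeR, the sole tool used here), and the highest those without WT mouse 3. The pathway lists (0 as reported) gave 4 higher and 3 lower with no filter and in DESeq2, and 0 to 5 each with 1 mouse left out. The markers (2 higher, 0 lower) gave 4 higher with no filter and in DESeq2, 2 and 1 lower, 1 higher with the length correction, and 0 to 5 higher and 0 to 1 lower with 1 mouse left out. The causes were not tested.

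The sample names do not say whether mice that share a number were pairs, and the paper states that WT controls were littermates. The deviations of mice that share a number correlated at -0.149 to 0.030, and 0 of 4 WT mice correlated best with their own number. With 4 such pairs this cannot show whether a litter or a day of preparation was shared. With the replicate block, 0 genes passed higher or lower (1427 at an unadjusted p under 0.05, edgeR), with *Fmod* at an adjusted p of 0.149 and 0 markers; with the block and the length correction, 0 were higher and 2 lower, with 0 markers and *Fmod* at 0.191. The log2 fold change turned for *Podn* without WT mouse 1 (0.0071) and for *Aspn* without WT mouse 2 (-0.021), and with 1 mouse left out ranged from -0.36 to 0.0071 for *Podn* and from -0.021 to 0.32 for *Aspn*. Depth limits *Omd* (28 counts in all).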
